A study of Mus musculus with 6 samples.

Results

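The genes that build tight junctions, adherens junctions and gap junctions were compared between liver tumors and normal livers of C3H/HeN mice. The set held 32 genes, which were 15 claudins, 4 MARVEL domain genes (Ocln and Marveld1 to Marveld3), 3 junctional adhesion molecule genes, 4 genes of the cytoplasmic plaque, the cadherins Cdh1 and Cdh2 with the adhesion molecule Epcam, and 3 connexins. Their probes were found on the array by gene name, and they were measured by 41 of the 55681 probes on the array, which named 34741 genes. The arrays were SurePrint G3 Mouse GE arrays with 1 dye, and the series held 3 normal livers and 3 liver tumors. All 6 samples came from untreated male mice 74 to 75 weeks old, which were F2 pups of the control group in a project on arsenic given during gestation, kept on a standard diet and tap water. The tumors were macroscopic, arose without treatment and, by the study's methods, carried a Ha-ras mutation. Neither the labels nor the methods used here say whether any tumor and normal liver came from 1 animal.

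Tight junctions seal the space between epithelial cells, and in liver they close the bile canaliculus, the channel between neighbouring hepatocytes, so that bile does not leak into blood. Their strands are made of claudins and MARVEL proteins, which are tied to actin by plaque proteins. Adherens junctions hold cells together through cadherins, and gap junctions are channels of connexins through which hepatocytes exchange ions and small molecules.

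The expression value of a probe is its background-subtracted signal divided by the 75th percentile of its array, so a value of 1 equals that percentile. Values of different genes were not ranked against each other because probes differ in brightness. The summed levels of cell type markers given below add such values, so they follow the brightest probes. A gene was tested when its probe was well above background on all 3 arrays of a group, and called when limma gave an adjusted p under 0.05 over all tested probes. Of the 32 genes, 24 were tested and 22 were well above background on all 6 arrays. The 8 genes not tested were Cldn4, Cldn6, Cldn8, Cldn9, Cldn10, Cldn11, Epcam and Gja1. On each array 44.7% to 48.9% of probes were well above background and no spot was saturated. The 75th percentile used for scaling was 123.9 intensity units for normal liver 1 and 169.7 to 182.6 on the other arrays. All normal livers were on 1 slide and all tumors on another, with a local background of 42 to 45 and 22 to 23 intensity units respectively, and an effect of the slide cannot be told apart from one of the tissue. The labels give the samples of a group as separate samples and nothing more, so p-values measure the spread between these samples. In an exact two-sided permutation test, 3 against 3 samples cannot give less than 0.1, and that p was reached by every gene whose groups did not overlap.

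Of the 24 tested junction genes, 16 were called, 13 higher and 3 lower in the tumors. Cldn7 counts as higher by its brighter probe, while its other probe was lower. Among all 18544 tested genes 34.2% were called, 13.1% higher and 21% lower. The change was 2-fold or more for 7 of the called junction genes, all of them higher, where 14.6% of all tested genes were called with such a change and 7.78% were called with such a rise and 6.83% with such a fall. The groups did not overlap for 19 of the 24 genes, against 51.8% of all tested genes. The median log2 fold change of the 24 genes was 0.51, where the median of all tested genes was −0.13. Scaling the arrays by their 8 spike-in probes moved every log2 fold change up by 0.21. The median over all tested probes, in place of genes, went from −0.13 to 0.077. Under that scaling 13 junction genes were called, all higher, of which 12 were called before, with Cldn23 in place of Cldn5, where 14.4% of all genes were called higher and 7.99% lower. Without 1 array the count of called junction genes was 12 (tumor 2 left out), 10 (normal liver 1, tumor 1 or tumor 3) or 9 (normal liver 2 or 3). Cdh1, F11r, Jam2, Cldn14, Cldn15, Marveld2 and Marveld3 were called under every limma setting tried that tested them.

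**Figure D1:**
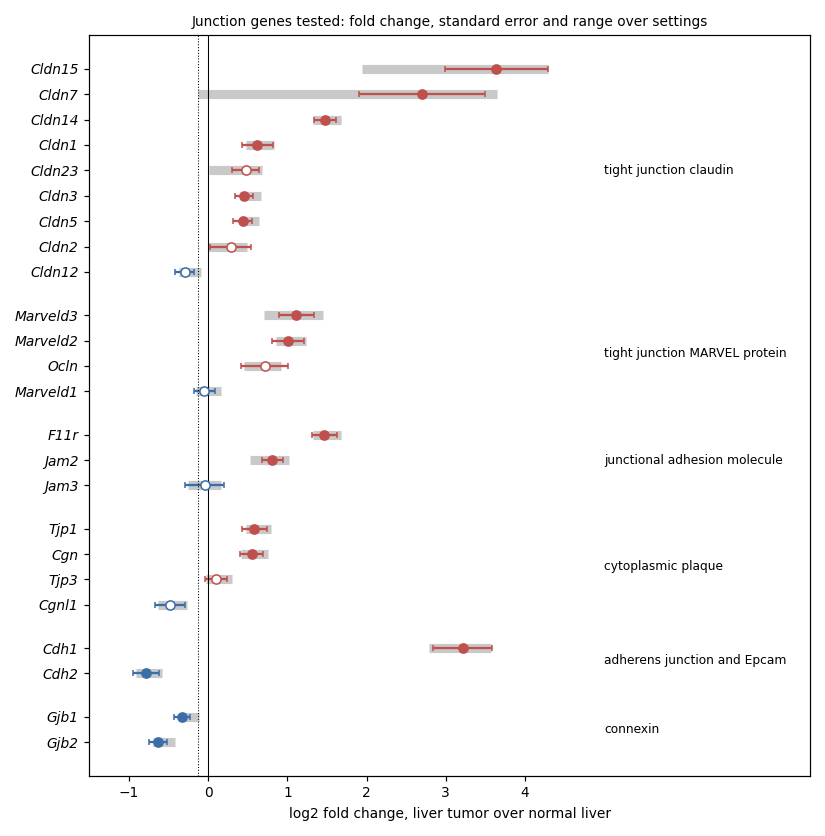
Log2 fold change of the 24 tested junction genes, liver tumor over normal liver (horizontal axis), by group. Points are limma estimates with their standard error, filled where called and open where not, red above 0 and blue below. Grey bars span the estimates over the settings tried, and the dotted line marks the median of all tested genes at −0.13. Cdh1, Cldn15 and Cldn7 lie farthest to the right, and the grey bar of Cldn7 reaches below 0.

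The cadherins moved in opposite directions. Cdh1 encodes E-cadherin, the epithelial cadherin, which in normal liver is carried by bile duct cells and by the hepatocytes around the portal tracts. Its gene lies at chr8:106603350-106670247 of the mouse build GRCm38.p6. In the normal livers its expression value was 2.63, 0.895 and 1.77, and in the tumors it was 14.2, 13.6 and 17.2. All tumors lay far above all normal livers, and the lowest tumor was 5.17-fold above the highest normal liver. The normal livers spanned 2.94-fold and the tumors 1.26-fold. The mean rose from 1.77 ± 0.870 to 15.0 ± 1.93 (SD, n = 3 each), a log2 fold change of 3.21 with a standard error of 0.38 and a limma adjusted p of 0.0023. The probe is printed on the array as 10 spots, which were averaged.

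Cdh2 encodes N-cadherin, which hepatocytes carry together with E-cadherin and which mesenchymal cells carry too. Its value was 28.0, 30.6 and 26.1 in the normal livers and 13.3, 16.8 and 19.6 in the tumors. Every tumor was below every normal liver. The mean fell from 28.2 ± 2.27 to 16.6 ± 3.19 (SD, n = 3 each), a log2 fold change of −0.78 with a standard error of 0.17 and a limma adjusted p of 0.015. A further Cdh2 probe gave −0.84 with a standard error of 0.16. The call was lost without normal liver 2, where the log2 fold change was −0.72 with a limma adjusted p of 0.057 (range 0.013 to 0.057 over the arrays left out), under spike-in scaling at −0.58, and with no filter on dim probes. The difference between Cdh1 and Cdh2 within an array, which no scaling of the arrays alters and which sums both changes, moved by 3.996 on the log2 scale towards Cdh1. On that scale Cdh1 minus Cdh2 was −3.41, −5.09 and −3.88 in the normal livers and 0.095, −0.30 and −0.19 in the tumors, with an exact two-sided permutation p of 0.1. Epcam, an adhesion molecule of bile duct and progenitor cells, had means of 0.120 and 0.117 and was well above background on 1 of 3 arrays of each group.

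**Figure D2:**
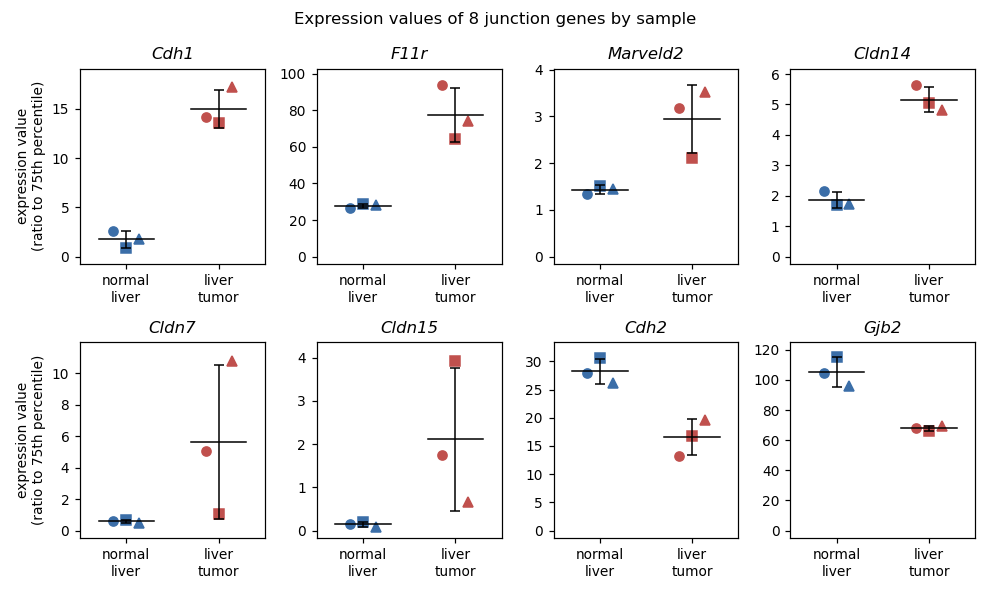
Expression values (signal over the array's 75th percentile, linear axes from 0) of 8 junction genes in each normal liver (blue) and liver tumor (red). Circles, squares and triangles are samples 1, 2 and 3 of a group, horizontal lines are means and bars are the SD. Cdh1, F11r and Cldn14 separate the groups widely, Cldn7 and Cldn15 spread over the tumors, and Cdh2 and Gjb2 are lower in the tumors.

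Of the 15 claudins, the 4-pass membrane proteins that form the tight junction strands, 9 were tested and 6 were called, all higher. Cldn14, at chr16:93919031-94008837, had values of 2.17, 1.69 and 1.74 in the normal livers and 5.63, 5.06 and 4.80 in the tumors. The tumors were all well above the normal livers and close to each other. The mean rose from 1.87 ± 0.265 to 5.16 ± 0.423 (SD, n = 3 each), a log2 fold change of 1.47 with a standard error of 0.14 and a limma adjusted p of 0.0011. Cldn15, a pore-forming claudin known from the intestine, at chr5:136967869-136975845, had values of 0.147, 0.194 and 0.0833 in the normal livers and 1.76, 3.92 and 0.667 in the tumors. Only 1 of the 3 normal livers was well above background, so the gene was tested through the tumors, and the tumors lay 5.87-fold apart. Its log2 fold change was 3.64 with a standard error of 0.65 and a limma adjusted p of 0.0084, and 1.95 with normexp background correction.

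Cldn7, a claudin of ducts and other simple epithelia, was measured by a pair of probes that disagreed. The brighter probe, which stands for the gene here, had values of 0.631, 0.663 and 0.487 in the normal livers and 5.07, 1.03 and 10.8 in the tumors. The tumors lay 10.5-fold apart, and tumor 2 was not far above the normal livers. The log2 fold change was 2.70 with a standard error of 0.80 and a limma adjusted p of 0.042. This call was lost with any of the normal livers, tumor 1 or tumor 3 left out, where the log2 fold change was 1.96 to 2.79 and the limma adjusted p 0.078 to 0.11, and it was kept without tumor 2 at 3.65. The dimmer probe had values of 0.173, 0.185 and 0.172 in the normal livers and 0.0245, 0.0201 and 0.0241 in the tumors. It was well above background in all normal livers and in no tumor, so it was tested through the normal livers. With the main processing it was at least 1.66-fold lower in the tumors, with a limma adjusted p of 5.4e-05. The tumor signal behind that p was not well above background, so its spread is not one of the gene between tumors. With normexp background correction the log2 fold change of the dimmer probe was −0.70, a smaller change than that bound. The first 30 bases of the 60-base probes, and the stretch of the gene in which the dimmer probe lies, are given to show where on the gene each one reads.
Cldn7 brighter probe: aaaggcctcctggccactccacctccaaac
Cldn7 dimmer probe: ttagagccaggcaaatgaaggggcgtgacc
Cldn7 chr11:69965171-69965420 (+): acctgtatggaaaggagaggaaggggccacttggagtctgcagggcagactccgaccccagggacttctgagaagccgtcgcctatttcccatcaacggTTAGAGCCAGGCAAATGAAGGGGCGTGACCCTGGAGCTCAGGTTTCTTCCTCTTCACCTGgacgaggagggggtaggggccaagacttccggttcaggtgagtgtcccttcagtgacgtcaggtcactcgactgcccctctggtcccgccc
The last line is RefSeq sequence of GRCm38.p6 on the + strand, the 250 bases before the second of the annotated Cldn7 starts, with the dimmer probe in capitals. The gene spans chr11:69964779-69967886, so the dimmer probe, at chr11:69965270-69965329, lies inside the annotated gene and ends 91 bases before that second start. The array design places the probes 2423 bases apart. With the mean of both probes in place of the brighter one, the log2 fold change of Cldn7 was −0.13.

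Cldn1, Cldn3 and Cldn5 rose by less. Cldn3, a sealing claudin of hepatocytes and bile ducts, had values of 44.1, 46.9 and 44.9 in the normal livers and 64.4, 55.9 and 66.6 in the tumors, with a log2 fold change of 0.46 with a standard error of 0.11 and a limma adjusted p of 0.025. Cldn1, which mice need for the skin barrier and which liver also carries, had values of 1.91, 1.97 and 1.44 against 2.25, 3.31 and 2.66, with 0.62, a standard error of 0.19 and a limma adjusted p of 0.049. Cldn5, the claudin of endothelial cells, had 3.13, 3.20 and 3.53 against 4.71, 4.66 and 4.01, with 0.44, a standard error of 0.12 and a limma adjusted p of 0.033. The groups of these genes did not overlap. Each call was lost without any 1 of the normal livers, and further without tumor 2 or 3 for Cldn1, tumor 1 or 3 for Cldn3 and tumor 1 or 2 for Cldn5. Over the arrays left out, the log2 fold change was 0.48 to 0.75 for Cldn1, 0.41 to 0.53 for Cldn3 and 0.40 to 0.51 for Cldn5. Cldn2, a cation pore of the leaky epithelia, Cldn12 and Cldn23 did not pass the test, with log2 fold changes of 0.29, −0.30 and 0.47 and limma adjusted p of 0.43, 0.097 and 0.071. Cldn2 had 14.9 in tumor 3 and 7.73 to 8.54 in the other tumors, beside 7.34 to 9.11 in the normal livers. Of the claudins not tested, Cldn6 and Cldn8 were well above background on no array, and Cldn4, Cldn9, Cldn10 and Cldn11 only on 1 or 2 arrays of a group.

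**Figure D3:**
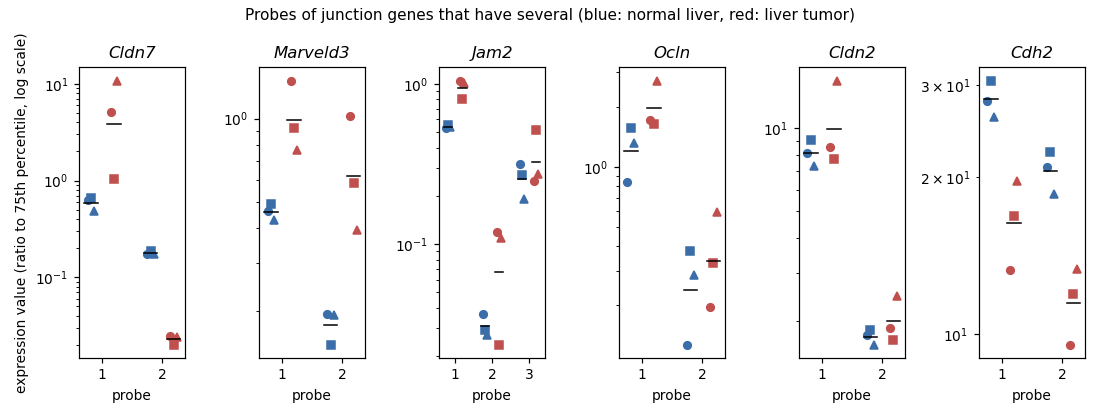
Expression values (signal over the array's 75th percentile, log axes) of each probe of 6 junction genes with several probes, with the brightest as probe 1. Blue is normal liver and red is liver tumor, circles, squares and triangles are samples 1 to 3, and lines are geometric means. The probes of Cldn7 point in opposite directions, and those of Marveld3 and Cdh2 in the same direction.

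Among the MARVEL proteins, which span the membrane, Marveld2 and Marveld3 rose. Marveld2 encodes tricellulin, which seals the corners where 3 cells meet, and lies at chr13:100595957-100616971. Its value was 1.33, 1.52 and 1.44 in the normal livers and 3.19, 2.12 and 3.52 in the tumors. The groups did not overlap, and tumor 2 was the lowest tumor. The log2 fold change was 1.01 with a standard error of 0.20 and a limma adjusted p of 0.013. The study had listed Marveld2 by a region near its start site that was less methylated in the tumors, its expression and a literature search for cancer. The expression came from these samples, so its direction here is not independent evidence.

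Marveld3 had values of 0.463, 0.488 and 0.427 in the normal livers and 1.37, 0.926 and 0.768 in the tumors. All tumors were above the normal livers, with tumor 1 the highest. The log2 fold change was 1.11 with a standard error of 0.22 and a limma adjusted p of 0.012. A further probe, designed to another RefSeq transcript of the gene, had 0.194, 0.151 and 0.193 against 1.02, 0.586 and 0.394, a log2 fold change of 1.79 with a standard error of 0.34 and a limma adjusted p of 0.010. The first 30 bases of each probe are shown, since each was designed to its own transcript.
Marveld3 first probe: tcccatacttgattcctaagctccctcagt
Marveld3 further probe: ttgggaccatcaccgtatattcccgtacaa
The tumors stood in the same order on both probes. Ocln, which encodes occludin, had values of 0.835, 1.57 and 1.32 in the normal livers and 1.73, 1.63 and 2.72 in the tumors. The groups did not overlap, but normal liver 2 lay just under tumor 2, and the log2 fold change of 0.72, with a standard error of 0.30, did not pass at a limma adjusted p of 0.11. Marveld1 had −0.05 with a standard error of 0.13, and overlapping groups.

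The junctional adhesion molecules are immunoglobulin-type proteins beside the tight junction strands. F11r, which encodes JAM-A of epithelia and platelets and lies at chr1:171437561-171464593, had values of 26.4, 28.7 and 28.1 in the normal livers and 93.6, 64.5 and 74.3 in the tumors. The normal livers were nearly equal, and the lowest tumor was 2.25-fold above the highest of them. The mean rose from 27.7 ± 1.19 to 77.4 ± 14.8 (SD, n = 3 each), a log2 fold change of 1.47 with a standard error of 0.16 and a limma adjusted p of 0.0017. Jam2, known from endothelial cells, had 0.531, 0.552 and 0.535 against 1.05, 0.806 and 1.01, a log2 fold change of 0.81 with a standard error of 0.13 and a limma adjusted p of 0.0063. The groups did not overlap on that probe. A further Jam2 probe had 0.36 with overlapping groups and a limma adjusted p of 0.43, and the last Jam2 probe was not well above background on all arrays of either group. Jam3 had overlapping groups and a log2 fold change of −0.04 with a standard error of 0.24. F11r minus Jam3 within an array moved by 1.51 on the log2 scale, with an exact two-sided permutation p of 0.1.

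The plaque proteins link the strands to actin, and 2 of the 4 rose. Tjp1, which encodes the scaffold ZO-1, had values of 3.51, 4.22 and 3.41 in the normal livers and 6.38, 4.68 and 5.71 in the tumors, with a log2 fold change of 0.58 with a standard error of 0.16 and a limma adjusted p of 0.033. Cgn, which encodes cingulin, had 9.34, 9.60 and 7.19 against 11.9, 13.3 and 12.8, a log2 fold change of 0.55 with a standard error of 0.15 and a limma adjusted p of 0.030. Both pairs of groups were apart. The call of Tjp1 was lost without normal liver 1 or 3 or tumor 1 or 3, with a log2 fold change of 0.48 to 0.71 over the arrays left out, and that of Cgn without any 1 of the 6 arrays, with 0.42 to 0.62. Tjp3, a ZO family member, and Cgnl1, paracingulin, did not pass, with log2 fold changes of 0.10 and −0.48 and limma adjusted p of 0.63 and 0.091.

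The connexins tested were both lower in the tumors. Gjb2 encodes connexin 26, a channel of hepatocytes, and lies at chr14:57098602-57104702. Its value was 104.7, 115.3 and 95.9 in the normal livers and 68.1, 66.2 and 69.2 in the tumors. The tumors were close together and every normal liver was above them. The mean fell from 105.3 ± 9.75 to 67.8 ± 1.52 (SD, n = 3 each), a log2 fold change of −0.63 with a standard error of 0.11 and a limma adjusted p of 0.0086. Gjb1, which encodes connexin 32, the main gap junction protein of liver, had 444.9, 452.2 and 422.5 against 338.9, 352.6 and 360.4, a log2 fold change of −0.33 with a standard error of 0.10 and a limma adjusted p of 0.046. The groups did not overlap, but the call was lost without any 1 of the 6 arrays, where the log2 fold change was −0.36 to −0.30. Under spike-in scaling neither was called, at −0.42 for Gjb2 and −0.12 for Gjb1. Gja1, connexin 43 of stellate and other non-hepatocyte cells, did not exceed background clearly on any array.

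The 13 genes called higher did not share 1 leading tumor. Tumor 1 was the highest for 6 of them (Cldn5, Cldn14, Marveld3, F11r, Jam2 and Tjp1), tumor 2 for 3 (Cldn1, Cldn15 and Cgn) and tumor 3 for 4 (Cldn3, Cldn7, Marveld2 and Cdh1). Tumor 2 was the lowest for 7, tumor 3 for 4 and tumor 1 for 2. Cldn7 (brighter probe) and Cldn15 had the widest spread among the tumors and stood in opposite order. Tumor 2 was the highest for Cldn15 and the lowest for Cldn7, and tumor 3 the reverse.

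Markers of the other cells that carry these genes are given as values, and in bulk tissue fewer cells of a type and less RNA per cell cannot be told apart. Of 10 bile duct cell markers, 8 were tested and 1 was called, Slc4a2, which was lower. Their summed level was 58.9 to 93.6 in the normal livers and 30.8 to 51.6 in the tumors, nearly all of it from Slc4a2 (means 37.7 and 20.5) and Onecut1 (means 34.6 and 16.4, not called). Krt19, a bile duct keratin, had a log2 fold change of −0.63 with a limma adjusted p of 0.25. Krt7 was well above background on 2 of 3 arrays of each group, and Muc1 on none. These values stand beside the rise of Cdh1 and of the brighter Cldn7 probe. Of 12 endothelial markers 3 were higher and 3 lower, with summed levels of 141 to 155 and 131 to 145, beside the rises of Cldn5 and Jam2. The higher ones were Egfl7, Emcn and Esam, with log2 fold changes of 0.54, 0.70 and 0.53, or 0.62, 0.15 and 0.49 with normexp background correction. The lower ones were Tie1, Stab2 and Clec4g, with −0.68, −0.78 and −0.49, or −0.48, −0.64 and −0.37 with normexp. Pecam1 and Cdh5, which define endothelium, were not called, with −0.01 and 0.14. Of 11 stellate cell and fibroblast markers 2 were higher and 6 lower, beside the fall of Cdh2. Their summed level was 93.3 to 109.7 and 31.8 to 52.9, most of it from Dcn (means 83.2 and 27.8). Col1a1 and Reln rose with log2 fold changes of 1.58 and 0.72, or 1.11 and 0.22 with normexp. Of 9 macrophage markers 6 were lower, with 107.3 to 184.8 and 55.6 to 91.3. Of 7 lymphocyte markers 3 were tested and 1 was higher, Cd4, and their summed level, nearly all of it Cd4, was 65.3 to 69.2 and 141 to 244, while Cd8a was well above background on no array. Of 4 mesothelial markers 1 was tested and did not pass, and Lrrn4 was well above background on no array. Of 12 hepatocyte markers Apoa1 was higher, with a log2 fold change of 0.90, and Tat and Cps1 were lower, with −1.43 and −1.48. Alb and Hnf4a, which mark the tissue as liver, had log2 fold changes of −0.06 and 0.16. The part of these cells in the junction results was not tested.

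Other genes of the same junctions, 95 in all with desmosomes and pannexins included, moved in both directions. Of these 58 were tested and 24 were called, 15 higher and 9 lower, with a median log2 fold change of 0.13, beside 34.2% of all tested genes called. Of 27 tested tight junction genes 7 were higher and 5 lower. Amot, an angiomotin that binds Yap at the junction, had values of 2.20, 1.99 and 1.502 in the normal livers and 8.89, 6.99 and 7.28 in the tumors, with a log2 fold change of 2.03 with a standard error of 0.18 and a limma adjusted p of 0.00083. Prkcz, an atypical protein kinase C of the polarity complex, had 2.71, 2.70 and 2.22 against 1.14, 0.808 and 0.950, a log2 fold change of −1.40 with a standard error of 0.17 and a limma adjusted p of 0.0023. Cldnd2 had 1.26 with a standard error of 0.31, and 0.42 with normexp background correction. It was well above background in 2 of 3 normal livers. In the adherens group of 16 tested genes 3 were higher and 2 lower. On the log2 scale Plekha7 had 1.09, Cdh13 −1.22 and Cdh11 −0.75. With normexp background correction these were 0.87, −0.64 and −0.24. The catenins that bind the cadherin tails rose by little, with 0.44 for Ctnnb1 (β-catenin, standard error 0.11, limma adjusted p 0.025) and 0.41 for Ctnnd1 (standard error 0.12, limma adjusted p 0.045), while Ctnna1 had 0.20 with a limma adjusted p of 0.29.

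In the gap junction group, in which the pannexins were counted, 5 genes were tested and 3 were called. Panx1 is a pannexin and not a connexin, and forms membrane channels that release ATP. Its values were 0.530, 0.465 and 0.536 in the normal livers and 8.57, 4.94 and 4.14 in the tumors. Every tumor was far above every normal liver, with a log2 fold change of 3.46, a standard error of 0.27 and a limma adjusted p of 0.00054. Gja5, the connexin of arterial endothelium, was well above background in all tumors and no normal liver. It was at least 1.81-fold higher with a limma adjusted p of 0.014. With normexp background correction its log2 fold change was 0.39, a smaller change than that bound. Gjc3 had −1.96 with a standard error of 0.61 and a limma adjusted p of 0.049, and 1 of 3 tumors was well above background. With normexp background correction Gjc3 had −0.63. In the desmosome group of 10 tested genes, whose proteins anchor keratin filaments, 3 were higher and 1 lower. Pkp1, a plakophilin of stratified epithelia, had 1.32, 0.613 and 0.371 in the tumors and was well above background in no normal liver. It was at least 5.15-fold higher with a limma adjusted p of 0.0013. With normexp background correction its log2 fold change was 1.23, also a smaller change than its bound. Ppl, periplakin, had 0.823, 0.489 and 0.549 against 3.12, 1.80 and 2.97, a log2 fold change of 2.08 with a standard error of 0.28 and a limma adjusted p of 0.0037. Pkp2 had 0.66 with a standard error of 0.16.

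**Figure D4:**
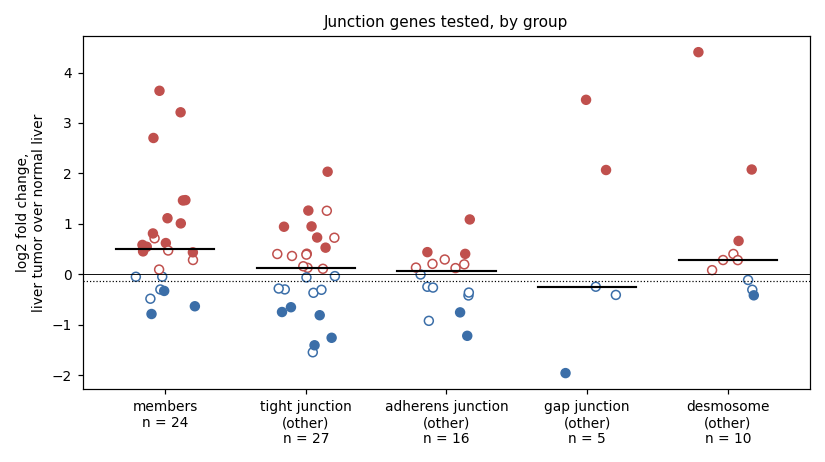
Log2 fold change, liver tumor over normal liver (vertical axis), of the tested junction genes. Shown are the 24 described first (members) and the other tight junction, adherens junction, gap junction (with pannexins) and desmosome genes. Each point is a gene, filled where called, red above 0 and blue below, black bars are group medians and the dotted line is the median of all tested genes. The highest point of the desmosome group is Pkp1, whose normal livers were not above background, so its place on the axis is not a measured size.

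The promoters of 24 of the 32 genes, in 36 windows of 250 bases before an annotated start, were searched on both strands for 4 motifs. The windows are RefSeq sequence of GRCm38.p6. A match is a description of the letters only, and genes with several starts had more windows. The Snail and Zeb type E-box CAGGTG, which these repressors are known to bind in the Cdh1 promoter, was in a window of 3 of the 10 genes called higher and of 7 of the other 14, where 17.2% of all 32817 windows held it. The grainyhead motif AACCNGTT was in 2 of the 10 (Cgn and Cldn5) and in none of the other 14, against 1.78% of all windows. The AP-1 motif TGANTCA was in 2 of the 10 and 2 of the 14, against 6.75%, and the Sp1 motif GGGCGG in 9 of the 10 and 9 of the 14, against 32.7%. The motifs shown in capitals do not overlap each other. The windows of Cgn and Cldn5 are shown with the grainyhead match in capitals, and that of F11r with the E-box and the AP-1 match in capitals.
Cgn chr3:94786483-94786732 (−): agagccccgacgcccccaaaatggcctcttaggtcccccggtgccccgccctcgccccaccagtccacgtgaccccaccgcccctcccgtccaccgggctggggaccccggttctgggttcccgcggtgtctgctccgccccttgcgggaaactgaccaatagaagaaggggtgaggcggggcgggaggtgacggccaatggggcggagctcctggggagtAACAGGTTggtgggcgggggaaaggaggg
Cldn5 chr16:18776597-18776846 (+): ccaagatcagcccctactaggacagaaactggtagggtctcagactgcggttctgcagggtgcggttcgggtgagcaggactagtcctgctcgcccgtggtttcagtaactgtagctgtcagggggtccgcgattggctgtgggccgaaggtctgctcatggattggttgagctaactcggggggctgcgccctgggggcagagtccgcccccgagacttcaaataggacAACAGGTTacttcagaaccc
F11r chr1:171437311-171437560 (+): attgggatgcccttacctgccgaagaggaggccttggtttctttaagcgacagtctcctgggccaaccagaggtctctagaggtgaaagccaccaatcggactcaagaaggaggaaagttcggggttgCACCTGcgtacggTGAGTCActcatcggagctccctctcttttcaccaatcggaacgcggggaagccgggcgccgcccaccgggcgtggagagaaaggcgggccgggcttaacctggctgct
The lines read 5′ to 3′ on the strand of the gene. No window was searched for Cdh1, Cdh2, Cldn8, Cldn9, Cldn23, Jam2, Jam3 or Marveld3. Binding of these factors was not measured here.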

How the data were processed

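Total RNA of 3 normal livers and 3 liver tumors was labelled with Cy3 and hybridised to SurePrint G3 Mouse GE arrays. For each array the authors deposited the spot intensity given by Feature Extraction (version 10.7.3.1 in the file headers, 12.0.3.1 in the submitters' processing notes), background subtracted and detrended. The authors also deposited a table of linear ratios, the signal over the 75th percentile of its array, which was used as an alternative.

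Each deposited intensity was divided by the 75th percentile of its array, taken over all spots, and put on the log2 scale. Controls and outlier spots were dropped and replicate spots averaged. A probe was tested if all 3 arrays of a group measured it well above background, which left 24898 probes for limma 3.58.1 (lmFit, eBayes, two-sided, Benjamini-Hochberg, threshold 0.05) in R 4.3.3, where 8238 were called. A gene stood by its brightest probe, and 8 members had several. Where no array of a group measured a probe well above background, its fold is a lower bound for the main processing only. The limma p of such a probe takes the spread of that group from signal not well above background. The dim group then counts, on each array, at the dimmest signal well above background or at the probe's own signal if that is higher. Python 3.11.15, pandas 2.3.3, numpy 2.4.6 and matplotlib 3.10.9 made tables and figures.

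Probes were named from RefSeq of GRCm38.p6 by accession (27235), symbol (3581) or synonym (565), and otherwise by the array design (24300). Positions are from the same annotation, and the exon or UTR each probe lies in was not analysed here. The number of arrays limits the precision.

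Members and gene lists were chosen with earlier results of these data known. Named genes are all members and, of the other junction genes, the 3 called genes with the largest change in each group, with Ctnnb1, Ctnna1 and Ctnnd1, and a further planned gene is not reported here. The fit was tested on simulated data. Alternatives were quantile normalization, normexp with an offset of 50, no filter and a stricter filter, the deposited ratios, spike-in scaling, the percentile without controls, a variance trend, averaging the probes of a gene, the replicate number as a block, each array left out, and the methods' t-test on linear values (ratio of means at least 2, mean above 1.0 in a group), unpaired and paired.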

Additional observations from a re-analysis of the deposited data

How the results depend on the processing

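Of the 16 junction genes called (13 higher, 3 lower, 7 by 2-fold or more), 16 were called with the deposited ratios, the percentile without controls and the trend, and 15 with quantile normalization, normexp, the stricter filter and the mean of probes. No filter on dim probes, which tests more probes, left 8 junction genes (7 higher, 1 lower) and 15 other junction genes of 24. Spike-in scaling left 0 lower in limma, with 1 (Cdh2) at an unadjusted p under 0.05. Leaving out 1 array gave 9 to 12 called, 7 to 10 higher, 1 to 2 lower, 4 to 7 by 2-fold and 15 to 21 of the other junction genes, and the 4 was without tumor 1. The labels do not say what the replicate numbers share. The study's statistics section names a paired t-test, while the note to its table of genes names Student's t-test only. Same-numbered samples' deviations correlated at 0.069, 0.13 and 0.051, and those of differently numbered samples at −0.14 to 0.055. With so few samples these values cannot settle whether the samples were paired. With the replicate number as a block, 9 junction genes were called (7 higher, 2 lower). The methods' t-test, unadjusted, met its criteria for 5 junction genes, 5 higher and 0 lower, and 5 other junction genes; after Benjamini-Hochberg adjustment for 3, 3 and 0, 3 by 2-fold, and 3 others; paired by the replicate number (the block of this test) for 3, 3 and 0, 3 by 2-fold, and 4 others. Beyond the count of arrays, the cause of these differences was not tested. The log2 fold change turned sign for Cldn7 with the mean of its probes (−0.13), where its probes disagree. It turned for genes that were not called: Marveld1 with spike-in scaling (0.16) and the mean of probes (0.096), and Jam3 with spike-in scaling (0.16). With 1 array left out it ran from −0.0056 to 0.47 for Cldn2, −0.16 to 0.013 for Marveld1, −0.26 to 0.15 for Jam3 and −0.023 to 0.19 for Tjp3. Dim probes limit the values of Cldn15, Gja5, Pkp1, Gjc3 and the dimmer Cldn7 probe. Each was not well above background in 1 of the groups or most of it.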
